A study of Mus musculus with 12 samples.

Results

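The 10 genes described here encode RNA-binding proteins that steer splicing, stability and translation of mRNA, and most of them take their fame from neurons. They are Elavl2, Elavl3 and Elavl4, Rbfox1, Rbfox2 and Rbfox3, Nova1 and Nova2, Celf4, and Ptbp1. They were given by name, with no measured value in the rule, and are 10 of the 24489 genes in the count table. The study isolated single cells of the developing mouse cochlea to follow how spiral ganglion neurons (SGN), the cells that carry sound from the hair cells to the brain, take on their subtypes. Its cells were sorted 1 to a well into 384-well plates and their polyA RNA was sequenced with Smart-seq2, a protocol that reads whole transcripts and counts reads, not tagged molecules. Each plate is 1 deposited sample and is the replicate here.

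The plates cover 5 ages of the embryo and 1 after birth, all from mice of C57Bl/6J background. At E15.5 there are 2 plates, at E16.5 3, at E17.5 1, at E18.5 2 and at P3 2, and the labels of all of them give the genotype PVcre;Ai14. In these mice Cre made where parvalbumin is expressed turns on the red reporter tdTomato, and red cells were sorted. At E14.5 there are 2 plates, and their labels differ: replicate 1 is given as PVcre;Ai14 and replicate 2 as TrkCcre, while the methods name Ntrk3Cre for that age. Age, driver and driver-labelled cell mix therefore cannot be fully told apart at E14.5. The sample labels give several animals pooled in an experiment, so a plate is not an animal, and plates of 1 age may share animals. Cells were chosen by the reporter at sorting, and whether the driver had been active in each class below was not tested.

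As background, the Elavl proteins other than Elavl1 bind AU-rich stretches of mRNA in neurons from early differentiation on, the Rbfox and Nova proteins bind short motifs next to alternative exons, and Celf4 binds the ends of mRNAs for synaptic proteins. Ptbp1 works the other way: it represses neuronal exons in progenitors and non-neuronal cells, and its loss during neuronal differentiation lets its relative Ptbp2 and the neuronal splicing pattern appear. Rbfox3 is the antigen known as NeuN, which stains most but not all mature neurons.

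Promoter windows came from RefSeq (build GRCm38.p6), each running from 250 bases before to 50 bases after an annotated start. The table lists 8 of the 10 members, with 17 windows in all, and 5 of the 8 have a single window; Rbfox2 and Celf4 are not listed. The windows of 3 genes are printed because Elavl3 and Nova2 fell together in SGN with age and Ptbp1 ran opposite to both between cell classes. Capitals mark the E-box letters CAGCTG, and CAGATG with its reverse complement CATCTG, the only motifs searched. Of all 32851 windows of this length in the table, 16.3% hold CAGCTG, 17.2% hold CAGATG or CATCTG and 30.6% hold either. The Elavl3 window (chr9:22051974-22052273, minus strand) holds 1 CAGCTG, 43 bases before the start, and is 65.3% G or C. The Nova2 window (chr7:18925638-18925937, plus strand) holds no match and is 71.3% G or C. The Ptbp1 window (chr10:79854182-79854481, plus strand) holds 1 CAGATG 55 bases before the start and 1 CAGCTG 40 bases after it, and is 58.3% G or C. The median over all windows is 52.7% G or C, and a match describes letters only.
Elavl3: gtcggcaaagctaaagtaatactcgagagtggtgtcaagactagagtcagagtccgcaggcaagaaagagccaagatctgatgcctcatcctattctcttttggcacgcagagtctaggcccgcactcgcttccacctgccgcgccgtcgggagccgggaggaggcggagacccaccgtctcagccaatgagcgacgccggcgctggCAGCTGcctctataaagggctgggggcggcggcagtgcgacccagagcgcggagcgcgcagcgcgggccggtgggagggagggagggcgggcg
Nova2: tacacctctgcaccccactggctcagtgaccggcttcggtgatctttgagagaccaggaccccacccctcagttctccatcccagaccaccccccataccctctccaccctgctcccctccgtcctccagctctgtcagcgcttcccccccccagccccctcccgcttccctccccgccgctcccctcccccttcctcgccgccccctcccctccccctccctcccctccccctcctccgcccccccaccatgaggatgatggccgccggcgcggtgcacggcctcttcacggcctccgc
Ptbp1: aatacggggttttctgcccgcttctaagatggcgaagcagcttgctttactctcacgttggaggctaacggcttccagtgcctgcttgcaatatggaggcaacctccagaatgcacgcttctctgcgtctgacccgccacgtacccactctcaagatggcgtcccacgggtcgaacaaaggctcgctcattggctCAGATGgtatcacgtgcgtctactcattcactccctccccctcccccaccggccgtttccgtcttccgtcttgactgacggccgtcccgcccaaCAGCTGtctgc

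In the GRCm38 (mm10) annotation of GENCODE M21, the Elavl genes lie on chromosomes 4 and 9. Elavl2 (ENSMUSG00000008489) spans chr4:91250763-91400785 and Elavl4 (ENSMUSG00000028546) spans chr4:110203722-110351909, both on the minus strand. Elavl3 (ENSMUSG00000003410) spans chr9:22015005-22052023 on the minus strand. The Rbfox genes are long. Rbfox1 (ENSMUSG00000008658) spans chr16:5885355-7411526 on the plus strand, Rbfox2 (ENSMUSG00000033565) spans chr15:77078990-77307004 on the minus strand, and Rbfox3 (ENSMUSG00000025576) spans chr11:118489762-118911597 on the minus strand. Nova1 (ENSMUSG00000021047) spans chr12:46694517-46818929 on the minus strand, and Nova2 (ENSMUSG00000030411) spans chr7:18925888-18965319 on the plus strand. Celf4 (ENSMUSG00000024268) spans chr18:25477632-25754157 on the minus strand, and Ptbp1 (ENSMUSG00000006498) spans chr10:79854427-79864771 on the plus strand. Nova2 shares 31.7% of its exon bases with Gm26821 on the other strand, and Ptbp1 shares 20.7% with E130317F20Rik, Gm17134 and Plppr3. Elavl3 shares 3.72% with Gm49318 and Nova1 3.54% with Gm33869 on the same strand. Whether the deposited counts used the strand is not stated, so reads of the stretches shared across strands cannot be told apart by gene. Strand would not separate those shared on the same strand.

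The 12 plates hold 4608 wells, of which 4226 were kept as cells: wells with more than 1000 genes detected and at most 5% of counts from spiked-in ERCC RNA. A further plate of 384 wells belongs to no deposited sample and was not used. Kept cells held 89277136 and 99072681 counts in all in the 2 E14.5 plates, 88982123 and 81958828 at E15.5, 130430871, 120874099 and 89504104 at E16.5, 80997594 at E17.5, 118229749 and 156833487 at E18.5, and 303906928 and 147486480 at P3. By these totals P3 replicate 1 was the deepest plate and E17.5 the shallowest. Per cell P3 replicate 2 was deeper, with a median of 1092427 counts against 829034 in replicate 1. Clusters of cells were named from marker genes as SGN-like (2273 cells), glia-like (1187), otic mesenchyme-like (OM-like, 569) and hair cell-like (HC-like, 86), and 111 cells stayed unnamed. The 10 members, 85 other RNA-binding and splicing genes and the 1364 genes of the study's own glial signature were kept out of the genes that formed the clusters. Clusters and comparisons still rest on the same cells, so class differences describe these classes of cells. SGN-like cells numbered 69 and 61 in the 2 E14.5 plates, 81 and 87 at E15.5, 353, 358 and 69 at E16.5, 70 at E17.5, 307 and 317 at E18.5, and 376 and 125 at P3.

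Counts of all cells of a class on a plate were summed, and levels are given as CPM (counts of a gene relative to all counts of the sum) after TMM scaling within each fit, so the CPM of the same cells differs slightly from fit to fit. Levels named unscaled below are plain CPM of sums that entered no fit or are set beside such sums. A difference is a log2 fold change from edgeR, with its standard error (SE), and is called where the p adjusted over all genes of the fit is under 0.05. Beside each main result stands the share of all genes called in that comparison, while results of other settings do not all carry one. Ages map onto plate series: E14.5, E15.5 and E17.5 plates all belong to SS2_20, E18.5 to SS2_19 and P3 to SS2_15, and only E16.5 has plates of 2 series (SS2_18 for replicates 1 and 2, SS2_20 for replicate 3). Age and plate series cannot be told apart in the comparisons with E18.5 and P3. The paper took its P3 data from an earlier study by its authors, and it reports a change of sorting facility at E18.5.

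RNA of other cell types was present in the SGN-like sums and differed between plates. For the glial markers it differed between plate series within E16.5 as well. The 6 glial markers (Sox10, Erbb3, Foxd3, Fabp7, Ednrb, Cdh19) summed to 38.3 and 23.6 CPM at E14.5, 23.3 and 145.2 at E15.5, 863, 698 and 21.6 at E16.5, 24.2 at E17.5, 2800 and 2801 at E18.5, and 749 and 584 at P3. These sums were lower in every SS2_20 plate than in any other plate, and highest in both E18.5 plates. They do not measure all glial RNA. Fabp7 led in 9 of the 12 sums, with 1447 and 1507 CPM at E18.5, and Ednrb in 3. Foxd3 was at 0 in E14.5 replicate 1 and Cdh19 at 0 in E14.5 replicate 2 and at E17.5, and the other sums held all 6. The 10 OM markers, led by Col1a2 in 8 of the 12 sums, summed to 72.0 and 103 CPM at E14.5, 24.5 and 61.4 at E15.5, 159, 101 and 55.7 at E16.5, 48.0 at E17.5, 518 and 431 at E18.5, and 223 and 199 at P3. Tbx1 was at 0 in 6 of the 12 sums, Car3 and Twist1 in 5 each, Tbx18 and Prrx1 in 3 each and Pdgfra in 1, and 5 sums held all 10. The 10 neuronal markers summed to 13498 CPM at the lowest, 14695 at the median and 20337 at the highest, all 10 detected in every sum. The part of glial and OM RNA in the age results below was not tested.

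Across the neurons of all ages, Elavl4 was the most abundant member per length of transcript and Nova2 at P3 the least. Per kilobase of exon, Elavl4 ran from 167 to 233 CPM over the 12 plates, far above Elavl3 (17.8 to 91.6), Rbfox2 (17.2 to 66.9) and Elavl2 (13.7 to 33.1). Rbfox1 ran from 5.76 to 35.3 CPM per kilobase, Ptbp1 from 8.62 to 23.2, Celf4 from 7.99 to 21.5 and Rbfox3 from 7.73 to 19.2. Nova2 ran from 0.778 to 11.4 CPM per kilobase and Nova1 from 2.35 to 8.32. Apart from Elavl4, the ranges of neighbours in this order overlap.

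The Elavl proteins stabilise target mRNAs, and Elavl4 (HuD) and Elavl3 (HuC) are classic early neuronal markers. Elavl3 stood at 631 and 507 CPM in the SGN-like sums of E14.5, 504 and 489 at E15.5, 286, 280 and 385 at E16.5, 424 at E17.5, 211 and 249.9 at E18.5, and 122 and 125 at P3. It was lower in each P3 plate than in any embryonic plate. Elavl2 stood at 268 and 271 CPM at E14.5, 274 and 275 at E15.5, 201, 194 and 220 at E16.5, 169 at E17.5, 114 and 116 at E18.5, and 229 and 235 at P3. Its low point was E18.5, and its P3 plates lay between those of E15.5 and E16.5. Elavl4 stood at 905 and 899 CPM at E14.5, 1254 and 1098 at E15.5, 947, 964 and 1069 at E16.5, 1171 at E17.5, 1004 and 1081 at E18.5, and 1229 and 1143 at P3. Both E14.5 plates were its lowest.

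The Rbfox proteins share 1 RNA motif, yet their mRNAs took 3 different courses. Rbfox1 stood at 25.3 and 31.2 CPM at E14.5, 55.5 and 74.1 at E15.5, 79.6, 77.0 and 90.7 at E16.5, 123 at E17.5, 155 and 138.8 at E18.5, and 104 and 84.3 at P3. Its plates climbed in order of age up to E18.5 and were lower again at P3. Rbfox2, the most widely expressed of the family, stood at 544 and 425 CPM at E14.5, 475 and 478 at E15.5, 328, 343 and 379 at E16.5, 337 at E17.5, 254 and 244 at E18.5, and 141 and 140 at P3. Its P3 plates were its lowest and its E18.5 plates the next. Rbfox3 stood at 96.8 and 72.1 CPM at E14.5, 59.5 and 44.96 at E15.5, 47.9, 56.9 and 60.2 at E16.5, 55.6 at E17.5, 55.3 and 57.3 at E18.5, and 95.9 and 112 at P3. It was high at both ends of the series and low between, with E14.5 and P3 plates overlapping.

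Nova1 and Nova2, the neuronal splicing factors first found as autoimmune antigens, took different courses. Nova2 stood at 94.6 and 95.6 CPM at E14.5, 59.2 and 61.4 at E15.5, 52.4, 52.3 and 40.2 at E16.5, 39.6 at E17.5, 26.2 and 24.5 at E18.5, and 6.51 and 8.06 at P3. Its highest plates were the E14.5 pair and its lowest the P3 pair, with no overlap between E14.5, E18.5 and P3. Nova1 stood at 25.6 and 34.9 CPM at E14.5, 31.5 and 20.6 at E15.5, 38.7, 30.5 and 26.9 at E16.5, 51.4 at E17.5, 34.7 and 38.9 at E18.5, and 72.8 and 71.5 at P3. Both P3 plates exceeded every other plate. Celf4, a regulator of synaptic mRNAs, stood at 185 and 173 CPM at E14.5, 88.2 and 113 at E15.5, 100.48, 102 and 76.8 at E16.5, 69.8 at E17.5, 78.0 and 78.1 at E18.5, and 82.1 and 68.5 at P3. Only its E14.5 plates stood apart, above all others. Ptbp1, the repressor of neuronal exons, stood at 77.5 and 110.2 CPM at E14.5, 48.3 and 60.3 at E15.5, 69.3, 65.0 and 53.5 at E16.5, 40.8 at E17.5, 85.4 and 74.2 at E18.5, and 49.8 and 56.6 at P3. The E14.5 and E18.5 plates overlapped and lay above all others, the plates of E15.5, E16.5 and P3 overlapped, and the E17.5 plate was lowest.

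**Figure D1:**
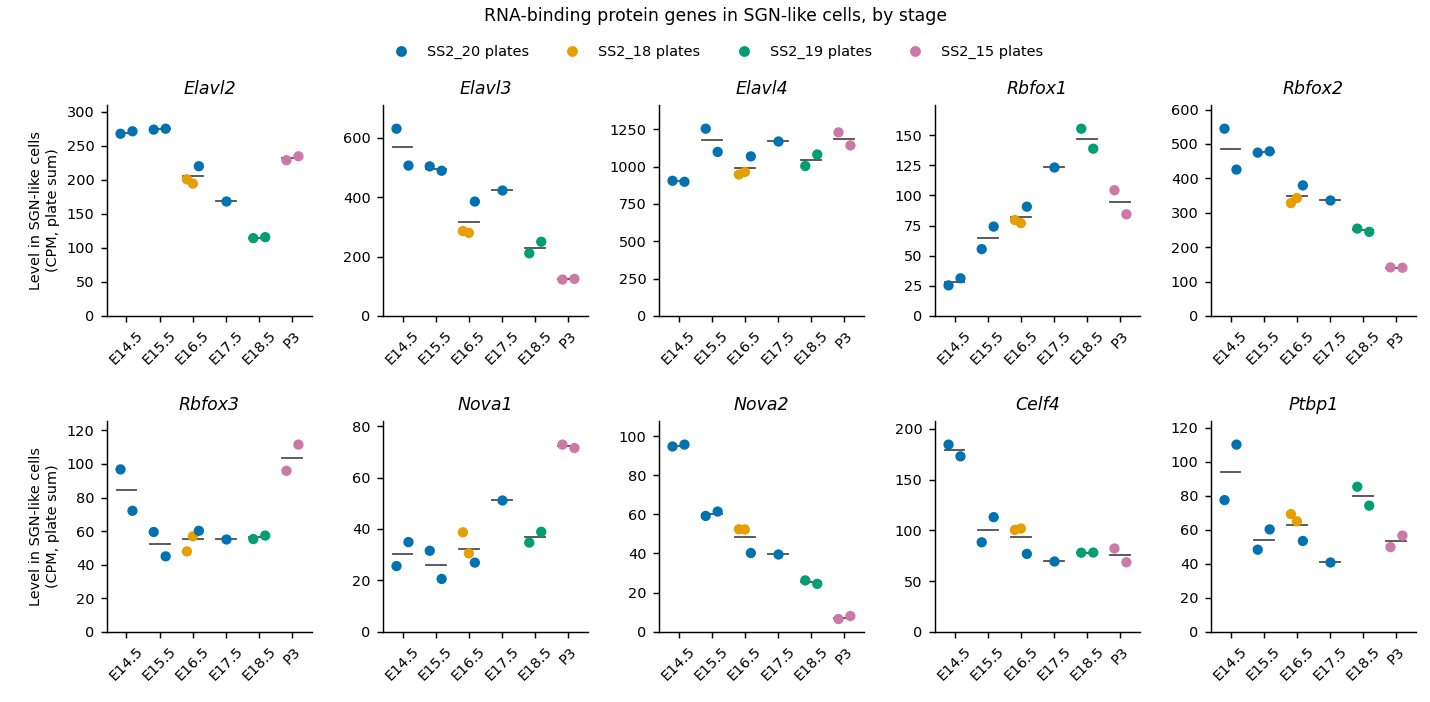
Normalised levels (CPM) of the 10 members in SGN-like sums by age, 1 panel a gene, 1 point a plate, with a short bar at the mean of each age. Nova2 ends at 6.51 and 8.06 CPM at P3 after 94.6 and 95.6 at E14.5, while Rbfox1 peaks at E18.5.

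From E14.5 to E16.5 unspecialized auditory neurons extend their processes and begin to split into subtypes, and the first comparison asks which regulators of neuronal RNA move meanwhile. Most members fell and Rbfox1 rose. Of all 17791 genes tested, 15% were called (2665), against 7 of the 10 members. Nova2 fell from 95.1 ± 0.685 CPM (SD, n = 2) to 48.3 ± 6.97 (n = 3), a log2 fold change of -0.98 (SE 0.16, adjusted p = 0.00244). Celf4 fell from 179 ± 8.18 to 93.0 ± 14.1 CPM, by -0.94 on the log2 scale (SE 0.15, adjusted p = 0.00273). Elavl3 fell from 569 ± 87.9 to 317 ± 59.3 CPM (log2 -0.84, SE 0.15, adjusted p = 0.00411). In each of these 3 genes all 3 later plates lay under both earlier ones. Rbfox3 fell by a log2 difference of -0.62 (SE 0.17, adjusted p = 0.0359), Rbfox2 by -0.47 (SE 0.11, adjusted p = 0.0178) and Elavl2 by -0.40 (SE 0.09, adjusted p = 0.0128), again with all 3 later plates below. Rbfox1 rose from 28.3 ± 4.16 to 82.4 ± 7.28 CPM (log2 1.54, SE 0.17, adjusted p = 0.000292), with all 3 later plates above. Elavl4 (0.14, SE 0.09), Nova1 (0.09, SE 0.23) and Ptbp1 (-0.58, SE 0.18, adjusted p = 0.0544) were not called.

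Within the SS2_20 series, the only one with plates of both ages, 3 members were called, against 320 of all 15627 genes, and all 3 are among the 7. There Elavl2 (log2 -0.28), Elavl3 (-0.55), Rbfox2 (-0.34) and Rbfox3 (-0.48) were not called. Leaving out E14.5 replicate 1 ended the calls of Rbfox2 (-0.25) and Rbfox3 (-0.36) and brought in that of Ptbp1 (-0.78). Rbfox2 also lost its call without E16.5 replicate 1 (-0.43) or replicate 2 (-0.46), Rbfox3 without E16.5 replicate 1 (-0.53), E16.5 replicate 2 (-0.65) or either E18.5 plate, and Elavl2 without E16.5 replicate 2 (-0.36). Keeping only the cells of each class and plate with the lower share of other-lineage marker counts (called low-marker cells below) ended the calls of Elavl2 (-0.31) and Rbfox3 (-0.42) and brought in that of Ptbp1 (-0.89). Ptbp1 was called with DESeq2 as well (-0.61).

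In each of 3 further lists of splicing and RNA-binding genes most genes were not called in the same span, and more were called lower than higher, while over all genes 1580 were higher and 1085 lower. Of 26 tissue splicing regulators 1 rose and 8 fell, with a median log2 difference of -0.18 beside 0.07 over all genes and -0.53 over the members. The largest were Khdrbs3 (-1.83, or -1.22 and not called without E14.5 replicate 1), Raver2 (-1.65, or -1.09 without that plate) and Celf2 (-1.13). Srrm4, a splicing activator of neuronal microexons, was at 117 ± 28.2 CPM at E14.5 and 74.4 ± 10.997 at E16.5 (log2 -0.65, adjusted p = 0.0345). Its relative Srrm3 was at 68.1 ± 0.579 and 43.1 ± 8.72 CPM (log2 -0.66, adjusted p = 0.0275). Without E14.5 replicate 1 the difference of Srrm4 was -0.35 and that of Srrm3 -0.63, neither called. Both calls were lost in 5 further fits without 1 plate as well. Ptbp2 (log2 -0.18) and Elavl1 (0.05) were not called. Rest, a repressor of neuronal genes, was at 2.59 ± 2.23 CPM at E14.5 and 9.23 ± 0.440 at E16.5 (log2 1.84, not called), and was called without E14.5 replicate 2 (3.19) or either E15.5 plate (1.84). Of 24 developmental mRNA-binding proteins 1 rose and 4 fell (median -0.10), led by Pcbp4 (-0.84), Igf2bp2 (-0.82) and Stau2 (0.65). Igf2bp2 was not called without E14.5 replicate 2 (-0.74), nor Stau2 without E14.5 replicate 1 (0.52), E16.5 replicate 1 (0.57) or E16.5 replicate 2 (0.59). Of 35 core splicing genes none rose and 10 fell (median -0.25), led by Srsf4 (-0.91), Hnrnpu (-0.61) and Hnrnpm (-0.61). Srsf4 was not called without E16.5 replicate 1 (-0.87) or E14.5 replicate 2 (-0.65), nor Hnrnpm without E16.5 replicate 1 (-0.54), E16.5 replicate 2 (-0.52) or E14.5 replicate 1 (-0.55).

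From E16.5 to E18.5, when neurons reach their hair cells and prune their branches, 4 of the 10 members were called, against 4.64% of all genes (826). Elavl2 fell from 205 ± 13.3 CPM (SD, n = 3) to 115 ± 1.02 (n = 2), a log2 fold change of -0.83 (SE 0.09, adjusted p = 0.00115). Nova2 fell from 48.3 ± 6.97 to 25.4 ± 1.25 CPM (log2 -0.93, SE 0.16, adjusted p = 0.011). Rbfox2 fell from 350 ± 26.5 to 249.1 ± 6.72 CPM (log2 -0.49, SE 0.11, adjusted p = 0.0356). Rbfox1 rose from 82.4 ± 7.28 to 147 ± 11.8 CPM (log2 0.84, SE 0.16, adjusted p = 0.016). In all 4 genes both later plates lay beyond all 3 earlier ones. Not called were Elavl3 (log2 -0.46), Elavl4 (0.07), Rbfox3 (0.04), Nova1 (0.20), Celf4 (-0.26) and Ptbp1 (0.35), and the plates of Elavl4, Rbfox3, Nova1 and Celf4 overlapped. Only Elavl2 kept its call in every fit without 1 plate. Rbfox1 lost it without E16.5 replicate 1 (0.80), E16.5 replicate 2 (0.75), E18.5 replicate 1 (0.71) or E18.5 replicate 2 (0.88), and Nova2 without E18.5 replicate 1 (-1.02) or replicate 2 (-0.92). Rbfox2 lost it without any 1 of 7 plates, with values from -0.56 to -0.43, and among low-marker cells (-0.34), as did Nova2 (-0.79). Elavl3 was called with DESeq2 (-0.47) and with cells thinned to 50000 counts (-0.50). Ptbp1 turned sign among low-marker cells (-0.66, not called).

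Of the tissue splicing regulators 1 rose and 2 fell between E16.5 and E18.5 (median log2 -0.19, beside 0.02 over all genes and -0.11 over the members): Qk (1.82), Celf3 (-1.28) and Celf5 (-0.997). Qk, which is best known from glia, stood at 113 and 121 CPM at E18.5 and between 12.2 and 45.3 at E16.5. It was not called without any 1 of the E16.5 replicates 1 and 2, the E18.5 plates or the P3 plates (values from 1.73 to 2.10), nor Celf5 without either E18.5 plate (-1.02 and -1.05). Among the mRNA-binding proteins Msi1 alone was called, lower (-1.12, median of the list -0.12), and was not called without E16.5 replicate 1 (-1.15), E16.5 replicate 2 (-1.14), E18.5 replicate 1 (-1.24) or E18.5 replicate 2 (-1.08). Of the core genes Hnrnpl (-0.93) and Hnrnpab (-0.73) fell (median -0.04), and Hnrnpl was not called without E18.5 replicate 1 (-1.01) or replicate 2 (-0.93). Ptbp2 (-0.24), Srrm3 (-0.42), Srrm4 (-0.05), Rest (0.93) and Elavl1 (-0.20) were not called.

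Between E18.5 and P3 the pups are born and the first spontaneous activity runs through the auditory nerve. Here 7 of the 10 members were called, against 24.8% of all genes (4406). Nova2 fell from 25.4 ± 1.25 CPM (SD, n = 2) to 7.29 ± 1.10 (n = 2), a log2 fold change of -1.80 (SE 0.18, adjusted p = 7.85e-05). Elavl3 fell from 230.4 ± 27.5 to 124 ± 1.60 CPM (log2 -0.90, SE 0.17, adjusted p = 0.00278), and Rbfox2 from 249.1 ± 6.72 to 141 ± 0.796 (log2 -0.83, SE 0.12, adjusted p = 0.000794). Rbfox1 fell from 147 ± 11.8 to 94.3 ± 14.1 CPM (log2 -0.64, SE 0.18, adjusted p = 0.0223), after its rise in the embryo. Elavl2 rose from 115 ± 1.02 to 232 ± 4.12 CPM (log2 1.01, SE 0.10, adjusted p = 6.86e-05). Nova1 rose from 36.8 ± 2.96 to 72.1 ± 0.940 CPM (log2 0.97, SE 0.24, adjusted p = 0.0146), and Rbfox3 from 56.3 ± 1.47 to 104 ± 11.1 (log2 0.88, SE 0.19, adjusted p = 0.00654). In these 7 genes both P3 plates lay beyond both E18.5 plates. These sums pool unlike shares of neuron types, with 169 of 624 E18.5 cells named intermediate, a name not used at P3. Within the types named below, mean Rbfox3 fell in Ia (78.4 to 51.7 CPM) and type II (14.1 to 11.4). It rose only in Ib/Ic (91.9 to 116). Rbfox1 fell in Ia (148 to 105) and Ib/Ic (121 to 79.1) but not in type II (112 to 125). Type II at P3 is 1 plate. The other called members went the same way in all types. The part of cell make-up was not tested. Elavl4 (0.19), Celf4 (-0.05) and Ptbp1 (-0.58, SE 0.20, adjusted p = 0.0548) were not called. Nova1 lost its call without P3 replicate 1 (0.94), P3 replicate 2 (0.97), E18.5 replicate 1 (0.88) or E18.5 replicate 2 (1.04). Rbfox1 lost it without P3 replicate 2 (-0.51), E18.5 replicate 1 (-0.57) or E18.5 replicate 2 (-0.74), and Rbfox3 without P3 replicate 2 (0.75) or E18.5 replicate 1 (0.84). All 3 lost it among low-marker cells (Rbfox1 -0.80, Rbfox3 0.79, Nova1 0.89). Ptbp1 was called with DESeq2, with cells thinned to 50000 counts and without E16.5 replicate 3 or either E14.5 plate, while among low-marker cells its sign turned (0.349, not called).

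In the tissue list 3 genes rose and 8 fell from E18.5 to P3 (median log2 -0.29, beside -0.09 over all genes and -0.32 over the members). Rbm24 was called at 4.25, from 0.168 and 0.266 CPM to 4.07 and 4.23. That gene stayed rare, and it was not called without 1 of the P3 plates, the E18.5 plates or the E16.5 replicates 1 and 2 (3.94 to 4.60). Celf5 fell (-1.77) and Mbnl2 rose (1.40), the latter a splicing factor of maturing tissues. Srrm3 fell by -0.73 (SE 0.19, adjusted p = 0.0178), a call lost without P3 replicate 2 (-0.64), E18.5 replicate 1 (-0.70) or E18.5 replicate 2 (-0.78). Srrm4 (-0.24), Ptbp2 (0.04) and Elavl1 (0.08) were not called. Rest (-1.51) was called only without E14.5 replicate 1 (-1.52) or replicate 2 (-1.51). Of the mRNA-binding proteins none rose and 8 fell (median -0.25), Igf2bp1 (-4.60) and Igf2bp3 (-2.26) among them. The core genes split into 6 up and 7 down (median -0.05), led by Snrnp70 (-1.05), Srsf1 (0.90) and Srsf2 (0.88), and Srsf2 was not called without E18.5 replicate 1 (0.80).

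Over the whole embryonic span, from E14.5 to E18.5, the comparison shares its plates with those above and so adds size but no new samples. Of the 10 members 7 were called, against 23.6% of all genes (4197). Rbfox1 rose by a log2 fold change of 2.38 (SE 0.19, adjusted p = 2.01e-05), from 28.3 ± 4.16 to 147 ± 11.8 CPM. Nova2 fell by -1.91 (SE 0.18, adjusted p = 4.92e-05), Elavl3 by -1.30 (SE 0.17, adjusted p = 0.000364) and Elavl2 by -1.23 (SE 0.10, adjusted p = 2e-05). Celf4 fell by -1.20 (SE 0.17, adjusted p = 0.000723), Rbfox2 by -0.96 (SE 0.12, adjusted p = 0.000361) and Rbfox3 by -0.58 (SE 0.19, adjusted p = 0.048). In every called gene both E18.5 plates lay on the same side of both E14.5 plates. Elavl4 (0.21), Nova1 (0.28) and Ptbp1 (-0.23) were not called. The call of Rbfox3 was lost without E14.5 replicate 1 (-0.34), E18.5 replicate 1 (-0.60), E18.5 replicate 2 (-0.65) or E16.5 replicate 2, with Leiden resolution 2 (-0.52), and among low-marker cells (-0.27). Those low-marker cells also gave called differences for Ptbp1 (-1.54) and Elavl4 (0.47).

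Of the tissue list 3 genes rose and 10 fell over that span (median log2 -0.45, beside 0.10 over all genes and -0.77 over the members). Rest led (2.77, SE 0.64, adjusted p = 0.0101), from 2.59 ± 2.23 to 17.6 ± 1.09 CPM in neurons whose glial marker sums went from 38.3 and 23.6 to 2800 and 2801. Qk rose (2.22, or 2.11 and not called without E14.5 replicate 1) and Raver2 fell (-2.14). Srrm3 fell by -1.08 (SE 0.19, adjusted p = 0.00254), Srrm4 by -0.70 (SE 0.20, adjusted p = 0.0272) and Ptbp2 by -0.42 (SE 0.11, adjusted p = 0.0174), while Elavl1 (-0.15) was not called. The calls were lost for Srrm4 without E14.5 replicate 1 (-0.42), E18.5 replicate 1 (-0.75) or E18.5 replicate 2 (-0.73), and for Ptbp2 without E14.5 replicate 1 or E18.5 replicate 1 (-0.40 each). Of the mRNA-binding proteins 1 rose and 8 fell (median -0.18), led by Igf2bp1 (-1.82), Msi1 (-1.69) and Pcbp4 (-1.14). Igf2bp1 was not called without E14.5 replicate 1 (-1.23), E18.5 replicate 1 (-1.89) or E18.5 replicate 2 (-1.84). In the core list 1 rose and 11 fell (median -0.30), led by Hnrnpab (-1.23), Hnrnpl (-1.12) and Hnrnpu (-0.99).

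**Figure D2:**
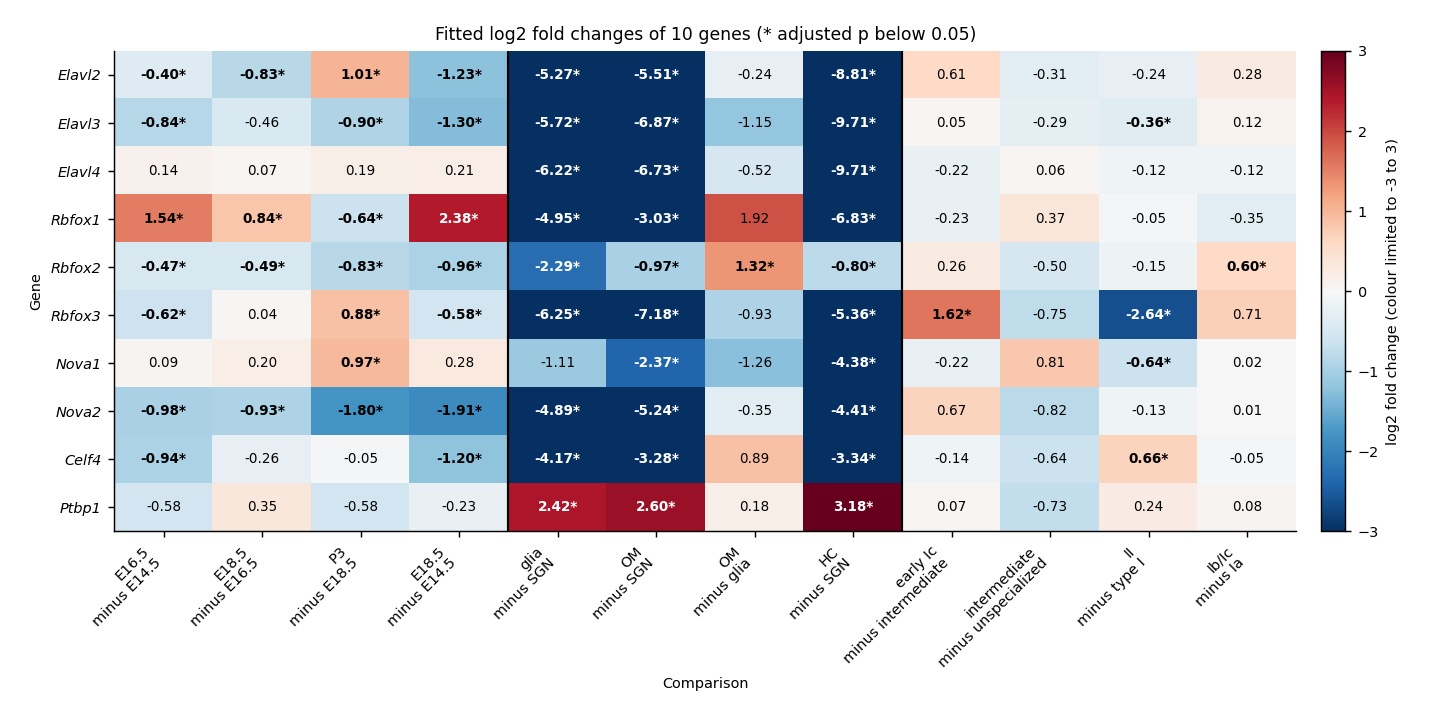
Log2 fold change of the 10 members in the 12 comparisons as a heat map, its colour scale limited to -3 to 3, with a star where the adjusted p is under 0.05. Blocks of members differ strongly between SGN-like and other classes (Elavl4 -6.22 in glia-like against SGN-like sums). Between OM-like and glia-like sums only Rbfox2 (1.32) is called with all plates, but 6 members are with the SS2_20 plates alone.

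The class comparisons ask which members are neuronal at all in this tissue. They use the 10 embryonic plates, with a term for each plate as a block. That term is shared by all classes of the plate in 1 fit. A fitted difference between 2 classes therefore also depends on the sums of the other classes. Only the counts of plates going the same way, and fits of the 2 classes alone, compare 2 classes directly. The sums of glia-like cells on the SS2_18 and SS2_19 plates hold 7 to 17 cells and those of OM-like cells 5 to 10, against 30 to 246 on the SS2_20 plates, and they stood apart. The 10 neuronal markers summed to 744 and 633 CPM in the glia-like sums of E14.5, 780 and 756 at E15.5, 751 in E16.5 replicate 3 and 569 at E17.5, but to 6307 and 8750 in E16.5 replicates 1 and 2 and 2771 and 2088 at E18.5. In the OM-like sums they came to 232 and 201 CPM at E14.5, 296 and 306 at E15.5, 325 in E16.5 replicate 3 and 213 at E17.5, but to 6515 and 8909 in E16.5 replicates 1 and 2 and 6687 in E18.5 replicate 1. The SGN-like sums held 14665 to 17852. All 10 markers were detected in every glia-like sum, and Snap25 was at 0 in the OM-like sum of E15.5 replicate 2. Neuronal RNA in glia-like and OM-like sums was thus higher on each SS2_18 and SS2_19 plate than on any SS2_20 plate, and its part in the member values was not tested. Class results of the members are therefore given also for the SS2_20 plates alone. Those of other genes and lists rest on all plates. Srrm4, for example, stood at 42.9 and 59.1 CPM in the glia-like sums of E16.5 replicates 1 and 2 and at 2.31 in replicate 3.

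**Figure D3:**
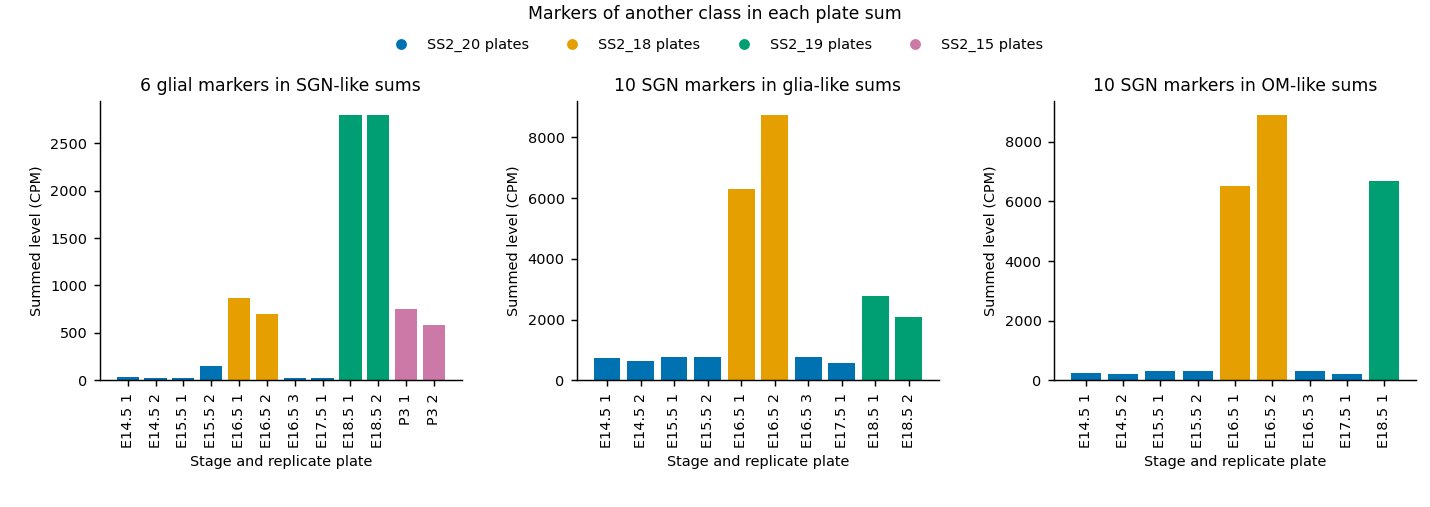
Summed markers of another lineage in CPM, 1 bar a plate: 6 glial markers in SGN-like sums, and 10 neuronal markers in glia-like and OM-like sums. In glia-like sums the SS2_18 plates reach 6307 and 8750 CPM, while no SS2_20 plate passes 780.

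In glia-like cells, the Schwann and satellite cells around the neurons, most members were scarce. Elavl4 ran from 6.94 to 668 CPM (median 10.8, n = 10) in glia-like sums, against 943 to 1350.5 (median 1117, n = 10) in SGN-like sums. Elavl3 ran from 2.45 to 154 CPM (median 12.9) against 229 to 666 (median 434), and Elavl2 from 1.62 to 82.4 (median 6.03) against 124 to 299 (median 230). The highest glia-like values of all 3 genes came from the 2 SS2_18 plates, and the classes did not overlap. Rbfox3 ran from 0 to 22.5 CPM (median 1.33) against 48.9 to 102 (median 62.9), and Nova2 from 0 to 29.1 (median 2.14) against 26.6 to 100.3 (median 58.5). Rbfox1 ran from 0.139 to 34.1 CPM (median 1.37) against 26.7 to 169 (median 87.5), and Celf4 from 0.552 to 81.0 (median 3.17) against 75.1 to 195 (median 104). For Nova2, Rbfox1 and Celf4 the ranges overlapped, yet on every plate the glia-like sum was the lower. Rbfox2 was reduced but not scarce, at 41.5 to 184 CPM (median 70.0) against 265 to 575 (median 394). Nova1 ran from 1.55 to 31.5 CPM (median 17.7) against 22.35 to 55.3 (median 35.3), lower on all 10 plates. Ptbp1 was the opposite case, at 142.5 to 576 CPM (median 482) against 43.9 to 116 (median 75.0), higher on all 10.

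Between glia-like and SGN-like sums 9 of the 10 members were called, against 45.9% of all genes (7286 of 15868). Rbfox3 had a log2 fold change of -6.25 (SE 1.14, adjusted p = 9.25e-05), Elavl4 of -6.22 (SE 1.04, adjusted p = 3.69e-05) and Elavl3 of -5.72 (SE 1.04, adjusted p = 9.14e-05). Elavl2 differed by -5.27 (SE 0.89, adjusted p = 4.34e-05), Rbfox1 by -4.95 (SE 0.82, adjusted p = 3.46e-05) and Nova2 by -4.89 (SE 1.09, adjusted p = 0.000738). Celf4 differed by -4.17 (SE 0.79, adjusted p = 0.000142) and Rbfox2 by -2.29 (SE 0.20, adjusted p = 2.31e-08). Ptbp1 was higher in glia-like cells, by 2.42 (SE 0.21, adjusted p = 1.87e-08). All 10 plates went the same way in each of them. Nova1 was not called (-1.11, SE 0.48, adjusted p = 0.0584). It was called with DESeq2 (-1.14), with sums of at least 10 cells (-0.86), with only the 2 classes in the fit (-1.11) and in some further fits. With the SS2_20 plates alone all 10 were called, against 6722 of all 16847 genes, the 9 and Nova1 (-1.12), and Ptbp1 stood at 2.96 and Rbfox2 at -2.90.

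Ptbp1 belongs to a glial gene signature that the study chose on cells of this series, so its direction in glia is not independent of that choice, and the same holds for Elavl1 (log2 0.91, SE 0.12, adjusted p = 1.43e-06). Of the tissue splicing list 8 genes were higher and 11 lower in glia-like cells (median log2 0.05, beside -0.03 over all genes and -4.92 over the members). Srrm3 (-6.40), Celf3 (-5.90) and Srrm4 (-5.47) led. Ptbp2, the relative that neurons use in place of Ptbp1, was lower in glia-like cells (-1.33, SE 0.33, adjusted p = 0.00208), at 107 ± 18.54 CPM (n = 10) against 264 ± 33.8. Rest was higher (3.22, SE 0.48, adjusted p = 1.04e-05), at 93.0 ± 37.0 CPM against 9.42 ± 6.14. The mRNA-binding list had 5 higher and 7 lower of 23 tested (median -0.07), led by Lin28b (-4.33), Pcbp3 (-3.36) and Cpeb1 (-2.92). The core list had 20 higher and 1 lower of 35 (median 0.39), led by Hnrnpf (1.55), Snrpb (0.94) and Hnrnpu (0.75).

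In OM-like cells, the connective tissue around the ganglion, the Elavl genes were scarce on most plates. Elavl4 ran from 0 to 657 CPM (median 4.38, n = 9), Elavl3 from 0 to 193 (median 0.761) and Elavl2 from 0 to 115 (median 4.35). The 3 highest sums of each gene were those of E16.5 replicates 1 and 2 and E18.5 replicate 1. Rbfox3 ran from 0 to 26.6 CPM (median 0.0238), Nova2 from 0 to 33.2 (median 1.80), Nova1 from 0.897 to 28.0 (median 4.90), Celf4 from 4.26 to 80.7 (median 9.87) and Rbfox1 from 1.38 to 64.0 (median 9.31). Rbfox2 was well expressed, at 144.2 to 272 CPM (median 217), and Ptbp1 ran from 218 to 623 (median 496). A count of 0 allows up to 0.387 CPM in the OM-like sum of E15.5 replicate 1, 0.336 in that of E15.5 replicate 2 and 0.269 at E17.5, taking 3 counts as the floor. In glia-like sums the same floor is 0.113 and 0.1103 CPM at E14.5, where Rbfox3 had no count, and 0.0609 in E15.5 replicate 2, where Nova2 had none. These floors cover counting error only.

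All 10 members were called between OM-like and SGN-like sums, against 43.5% of all genes (6900), and for each of them all 9 plates went the same way. Rbfox3 differed by a log2 fold change of -7.18 (SE 1.28, adjusted p = 9.28e-05), Elavl3 by -6.87 (SE 1.26, adjusted p = 0.000124) and Elavl4 by -6.73 (SE 1.19, adjusted p = 8.75e-05). Elavl2 differed by -5.51 (SE 0.96, adjusted p = 7.02e-05), Nova2 by -5.24 (SE 1.16, adjusted p = 0.000766) and Celf4 by -3.28 (SE 0.74, adjusted p = 0.000894). Rbfox1 differed by -3.03 (SE 0.74, adjusted p = 0.00191), Nova1 by -2.37 (SE 0.54, adjusted p = 0.00103) and Rbfox2 by -0.97 (SE 0.20, adjusted p = 0.00041). Ptbp1 was higher by 2.60 (SE 0.21, adjusted p = 1.64e-08). The ranges of Rbfox1, Rbfox2, Nova1, Nova2 and Celf4 overlapped between the classes. With the SS2_20 plates alone the same 10 were called, against 6732 of all 16847 genes, Ptbp1 at 3.14, Rbfox2 at -1.05 and Nova1 at -3.20. Among low-marker cells Rbfox2 was not called (-0.94).

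The tissue list had 7 genes higher and 8 lower in OM-like than in SGN-like sums (median log2 -0.06, beside -0.13 over all genes and -4.26 over the members), led by Srrm3 (-6.69), Celf6 (-6.34) and Mbnl3 (6.04). Ptbp2 was lower (-1.18, SE 0.35, adjusted p = 0.00802) and Srrm4 too (-5.66, SE 1.13, adjusted p = 0.000304). Rest (3.54, SE 0.50, adjusted p = 6.44e-06) and Elavl1 (0.86, SE 0.12, adjusted p = 4.97e-06) were higher, in each case on all 9 plates. Of the mRNA-binding list 2 were higher and 9 lower (median 0.01), led by Cpeb1 (-4.47), Lin28b (-4.08) and Pcbp3 (-3.58). Of the core list 15 were higher and none lower (median 0.24), led by Hnrnpf (1.45), Snrpb (0.76) and Tra2b (0.73).

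Set against each other, the 2 non-neuronal classes differed in 1 member, against 13.4% of all genes called (2128). Rbfox2, at 68.5 and 41.5 CPM in the glia-like sums of E14.5 and 217 and 212 in the OM-like sums, was higher in OM-like sums on all 9 plates (log2 1.32, SE 0.20, adjusted p = 9.51e-05). Its ranges overlapped, since the glia-like sums of E16.5 replicates 1 and 2 reached 171 and 184 CPM. The call was lost among low-marker cells (1.59). Rbfox1 (1.92, SE 0.75, adjusted p = 0.0976), Nova1 (-1.26, SE 0.53, adjusted p = 0.128), Elavl3 (-1.15), Rbfox3 (-0.93), Celf4 (0.89), Elavl4 (-0.52), Nova2 (-0.35), Elavl2 (-0.24) and Ptbp1 (0.18) were not called. With the SS2_20 plates alone 6 members were called, against 2292 of all 16847 genes, Rbfox2 among them (1.85), with Rbfox1 (3.55) and Celf4 (2.30) higher in OM-like cells and Elavl3 (-3.75), Elavl4 (-2.11) and Nova1 (-2.09) lower. Leaving out E16.5 replicate 1 brought in Rbfox1 (2.45) and leaving out E18.5 replicate 1 brought in Nova1 (-1.67). Both were called with DESeq2 as well (1.99 and -1.16), and with sums of at least 10 cells or Leiden resolution 2 they were called together with Celf4 (2.14 and 2.15).

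Of the tissue list 2 genes were higher in OM-like than glia-like sums and 1 lower (median log2 -0.06, beside -0.08 over all genes and -0.29 over the members): Mbnl3 (3.39, or 3.30 and not called without E14.5 replicate 2), Khdrbs2 (3.31) and Celf2 (-1.97). Of the mRNA-binding list none were higher and 3 lower (median -0.02): Pcbp4 (-1.17), Igf2bp2 (-1.16) and Msi1 (-0.97), the last not called in 8 of the 10 fits without 1 plate (-1.04 to -0.68). Of the core list Hnrnpu alone was called (-0.40, median -0.11). Ptbp2 (0.15), Srrm3 (-0.29), Srrm4 (-0.19), Rest (0.33) and Elavl1 (-0.05) were not called.

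**Figure D4:**
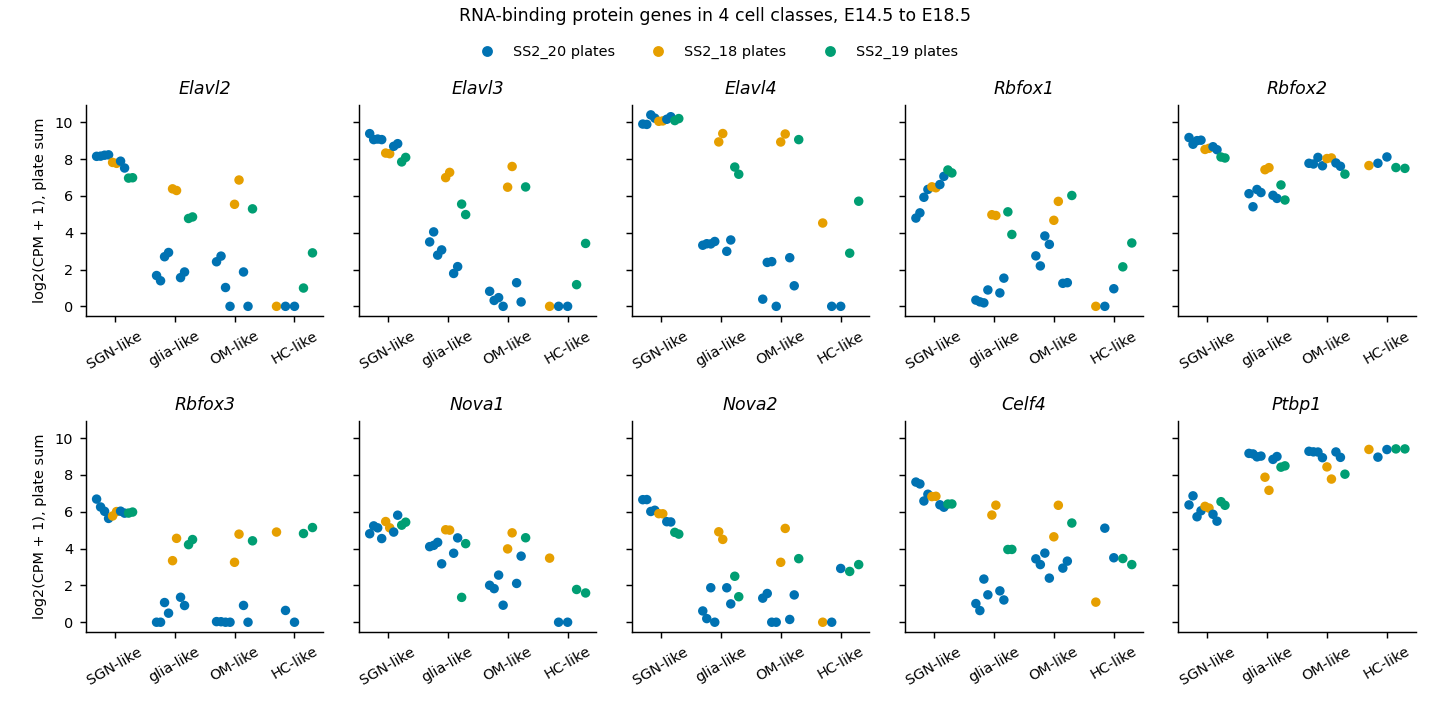
Levels as log2(CPM + 1) of the 10 members in SGN-like, glia-like, OM-like and HC-like sums of the embryonic plates, 1 point a plate. Ptbp1 is the 1 member whose SGN-like sums (43.9 to 116 CPM) lie under those of the other classes.

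Cochlear hair cells are the sensory partners of these neurons, and hair cells share parts of the neuronal splicing program, among them Srrm4. Of the 86 HC-like cells 34 were named vestibular, among them 8 of the 12 at E16.5. HC-like sums of at least 3 cells came from 5 plates: E16.5 replicates 1 and 3 (4 and 8 cells), E17.5 (5) and E18.5 replicates 1 and 2 (37 and 32). In that order Elavl2 stood at 0, 0, 0, 0.991 and 6.49 CPM, Elavl3 at 0, 0, 0, 1.26 and 9.68, and Elavl4 at 22.035, 0, 0, 6.40 and 51.3. A count of 0 allows up to 1.695, 1.68 and 2.82 CPM in the first 3 sums, so none of the Elavl genes came near its SGN-like range. In E18.5 replicate 2 most of these counts came from 3 HC-like cells that could not be given a type: 455 of 562 Elavl4 counts, 101 of 106 Elavl3 counts and 66 of 71 Elavl2 counts. The 10 neuronal markers summed to 5287 unscaled CPM in those 3 cells and to 1515 in the other 29, in which Elavl4 stood at 10.6 unscaled CPM. Rbfox3 stood at 28.8, 0.559, 0, 27.2 and 34.3 CPM. In the first and the 2 E18.5 sums its level was far from 0, yet each value lay under the lowest SGN-like sum (48.9). Rbfox1 stood at 0, 0, 0.939, 3.42 and 9.86 CPM, Nova1 at 10.2, 0, 0, 2.43 and 2.01, Nova2 at 0, 0, 6.57, 5.77 and 7.76 and Celf4 at 1.13, 33.5, 10.3, 10.0 and 7.76. Rbfox2 stood at 199, 217, 276, 185 and 179 CPM, with only that of E17.5 inside the SGN-like range. Ptbp1 stood at 668, 499.5, 666, 682 and 682 CPM, above every SGN-like sum.

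Between HC-like and SGN-like sums all 10 members were called, against 37.1% of all genes (5884), and all 5 plates went the same way for each. Elavl3 and Elavl4 each differed by a log2 fold change of -9.71 (SE 1.87, adjusted p = 0.000238, and SE 1.75, adjusted p = 0.000111). Elavl2 differed by -8.81 (SE 1.55, adjusted p = 8.44e-05), Rbfox1 by -6.83 (SE 1.25, adjusted p = 0.000138) and Rbfox3 by -5.36 (SE 1.54, adjusted p = 0.00783). Nova2 differed by -4.41 (SE 1.51, adjusted p = 0.0242), Nova1 by -4.38 (SE 0.78, adjusted p = 0.000105) and Celf4 by -3.34 (SE 1.02, adjusted p = 0.0121). Rbfox2 differed by -0.80 (SE 0.26, adjusted p = 0.017) and Ptbp1, higher, by 3.18 (SE 0.25, adjusted p = 1.35e-09). The folds of genes with 0 counts in some sums are poorly bounded: with the SS2_20 plates alone, where Elavl2, Elavl3, Elavl4 and Nova1 had no count in HC-like sums, they have no lower bound (nor those of Elavl2 and Elavl3 without the E18.5 plates), Rbfox3 stood at -9.79, and Nova2 was not called (-5.31). With sums of at least 10 cells, which leaves the 2 E18.5 plates, only Rbfox1 (-4.76), Nova1 (-4.17) and Ptbp1 (2.98) were called, and Elavl2 (-5.48), Elavl3 (-6.03), Elavl4 (-5.93), Rbfox2 (-0.57), Rbfox3 (-1.0015), Nova2 (-2.04) and Celf4 (-3.27) were not. Fewer of all genes were called in that fit too, as the last paragraph of this report gives. Among low-marker cells Rbfox2 (-1.43), Rbfox3 (-3.68) and Nova2 (-3.70) were not called, without vestibular HC-like cells Rbfox2 (-0.61) and Nova2 (-3.04), with only the 2 classes in the fit Rbfox3 (-2.54) and Nova2 (-3.78), and without the E18.5 plates Celf4 (-2.94). Nova2 was also not called without E18.5 replicate 1 (-4.40) or E16.5 replicate 3 (-4.07).

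The neuronal markers summed to 1491 and 1869 CPM in the HC-like sums of E16.5 replicates 1 and 3, 1230 at E17.5 and 1531 and 2055.5 at E18.5, with Gap43 at 0 in E16.5 replicate 3 and Tubb3 at 0 at E17.5. Their part in the member values was not tested. Split by type, the sums of E18.5 held 5 and 11 inner, 9 and 5 outer and 13 and 13 vestibular HC-like cells, and 10 and 3 cells stayed untyped. Levels by type are unscaled. Rbfox3 stood at 38.6 and 34.8 CPM in inner, 47.7 and 33.3 in outer and 17.45 and 35.3 in vestibular HC-like sums, with all types overlapping. Elavl4 stood at 1.21 and 0.989 CPM in inner, 6.09 and 2.56 in outer and 12.2 and 22.1 in vestibular HC-like sums. It was highest in the vestibular cells on both plates. Ptbp1 was high in all: 679 and 604 CPM in inner, 762 and 652 in outer and 699 and 759 in vestibular HC-like sums. Rbfox2 stood at 207 and 177, 261 and 234, and 153.4 and 154 CPM in the same order, highest in the outer cells of both plates. With 2 plates a type these values were not tested.

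Srrm4 was as high in HC-like as in SGN-like sums, at 203, 56.4, 127, 118 and 141 CPM beside 66.0 to 145 in SGN-like sums, the higher of the pair on 4 of the 5 plates. Its fitted difference (log2 -1.35, SE 1.22, not called) has the other sign. It comes from the fit of all classes, whose plate term glia-like and OM-like sums share. A fit with only these 2 classes gave 0.69 (SE 0.27, adjusted p = 0.133), not called either. Of the tissue list 9 genes were higher and 9 lower in HC-like cells (median log2 0.14, beside -0.19 over all genes and -4.89 over the members). Rbm24 led, a splicing factor of muscle and hair cells, at 181 to 261 CPM in HC-like and 0 to 0.380 in SGN-like sums (10.30), then Esrp1 (10.05), an epithelial splicing factor, and Celf3 (-7.81). Srrm3 was lower (-4.19, SE 1.38, adjusted p = 0.0192; not called without E16.5 replicate 3, -3.82) and Ptbp2 too (-2.90, SE 0.49, adjusted p = 5.95e-05). Rest was higher (2.39, SE 0.56, adjusted p = 0.00151) on 4 of 5 plates and Elavl1 (0.71, SE 0.15, adjusted p = 0.000512) on all 5. The mRNA-binding list had 2 higher and 5 lower (median -0.38), led by Pcbp3 (-3.03), Cpeb2 (-2.99) and Igf2bp2 (1.14). The core list had 9 higher and 3 lower (median 0.12), led by Hnrnpf (1.09), Hnrnpa1 (-0.67) and Snrpb (0.61), with Hnrnpa1 not called in 7 of the 10 fits without 1 plate (-0.73 to -0.52).

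Between E14.5 and E16.5 the SGN-like cells fell into unspecialized, intermediate and early Ic-like cells, named from marker genes of the study, and a rest that could not be named. In that order the names cover 29, 34 and 18 of the 130 SGN-like cells at E14.5, 38, 33 and 39 of those at E15.5 (81 and 87 in its 2 plates) and 86, 365 and 203 of 780 at E16.5, and the rest entered none of these sums. The early Ic cells are the first subtype to stand out, while intermediate cells keep a shared program. Between early Ic-like and intermediate sums 1 of the 10 members was called, against 1.04% of all 12219 genes (127). That member is Rbfox3, the NeuN gene. The study lists it among the early genes of its Ic branch, chosen on cells of this series, so its direction here is not independent of that choice. It stood at 166.25 and 71.7 CPM in the early Ic-like sums of E14.5, 102 and 93.0 at E15.5 and 100.24, 128 and 131 at E16.5. In the intermediate sums it stood at 43.6 and 91.4 CPM at E14.5, 50.4 and 15.3 at E15.5 and 27.9, 30.4 and 25.9 at E16.5. It was higher in early Ic-like cells on 6 of 7 plates, E14.5 replicate 2 being the exception (log2 1.62, SE 0.32, adjusted p = 0.0219). The call was lost without E16.5 replicate 1 (1.57), E16.5 replicate 2 (1.53), E16.5 replicate 3 (1.50) or E15.5 replicate 2 (1.48), and with Leiden resolution 2 (1.51). The early Ic-like class at E14.5 has 8 and 10 cells, whose cluster is led by Th, Prph and Gal and holds none of the early Ic markers among its 10 leading genes. Prph and Th are also among the 10 leading genes of the largest intermediate cluster at E16.5, so the name early Ic-like is uncertain at E14.5. Without the E14.5 plates Rbfox3 was called as well (1.91, adjusted p = 0.00215).

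No other member was called between early Ic-like and intermediate cells. Elavl2 (0.61, SE 0.20, adjusted p = 0.229) was called with DESeq2 (0.61), without the E14.5 plates (0.96) and without E14.5 replicate 1 (0.76). It stood at 334 and 276 CPM in the early Ic-like sums of E14.5, both below the intermediate 373 and 299, but at 267 to 351 later against 140.4 to 165. Rbfox2 (0.26) was called without the E14.5 plates (0.47). Nova2 (0.67) was higher in early Ic-like cells on all 7 plates without being called, and Elavl3 (0.05), Elavl4 (-0.22), Rbfox1 (-0.23), Nova1 (-0.22), Celf4 (-0.14) and Ptbp1 (0.07) went both ways. Medians were 0.06 over the members and -0.02 over all genes. None of 21 tissue splicing genes (median 0.11) and none of 35 core genes (median 0.06) was called. Of the mRNA-binding list only Pcbp3 was called (-0.56, median 0.04), a call lost in 6 of the 7 fits without 1 plate (-0.58 to -0.49). Srrm4 (0.12), Srrm3 (-0.09), Ptbp2 (0.19), Rest (-0.45) and Elavl1 (-0.21) were not called.

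Between intermediate and unspecialized cells, the step out of the unspecialized state, edgeR called none of the 10 members, against 1.49% of all genes (182 called, with 1701 at an unadjusted p under 0.05). DESeq2 called 2, Rbfox2 (-0.51) and Ptbp1 (-0.74), against 813 of all genes. Ptbp1 stood at 89.0 and 170.15 CPM in the unspecialized sums of E14.5, 49.1 and 87.7 at E15.5 and 79.4, 85.5 and 79.7 at E16.5. In intermediate cells it stood at 56.1 and 107 CPM at E14.5, 33.0 and 38.5 at E15.5 and 59.2, 49.4 and 44.9 at E16.5. It was lower in intermediate cells on all 7 plates, though the ranges overlap (log2 -0.73, SE 0.19, adjusted p = 0.0617), and it was called without the E14.5 plates (-0.76). Rbfox2 was lower on all 7 plates as well (-0.50, SE 0.14, adjusted p = 0.0845), at 293 to 619 CPM against 457 to 764. It was called without the E14.5 plates (-0.51), without E14.5 replicate 1 (-0.54), among low-marker cells, with cells thinned to 50000 counts, with sums of at least 10 cells and with Leiden resolution 2. Nova2 (-0.82) and Elavl3 (-0.29) were lower on all 7 plates too and were not called, nor were Rbfox3 (-0.75), Celf4 (-0.64), Elavl2 (-0.31), Nova1 (0.81), Rbfox1 (0.37) or Elavl4 (0.06). Without the E14.5 plates Elavl2 was called (-0.74). Medians were -0.41 over the members and 0.05 over all genes, -0.33 over 21 tissue genes and -0.23 over 35 core genes, with none called in either list. Pcbp4 of the mRNA-binding list was called (-0.35, median -0.15), but not in 6 of the 7 fits without 1 plate (-0.37 to -0.31).

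Glial markers in these early sums differed by class and plate. The 6 came to 244 and 109 CPM at E14.5, 26.0 and 21.3 at E15.5 and 1250, 910 and 48.4 at E16.5 in early Ic-like sums. In intermediate sums they came to 7.56 and 4.27, 23.4 and 53.6, and 168.6, 164.4 and 22.6 CPM, and in unspecialized sums to 1.47 and 13.4, 49.1 and 183, and 377, 644 and 12.7. Early Ic-like sums were thus the highest in these markers on all plates of E14.5 and E16.5. Their part in the early neuron results was not tested.

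At E18.5 and P3 neurons were named as type II, the sparse neurons of outer hair cells, and as type I subtypes Ia and Ib/Ic. In that order the names cover 22, 138 and 341 of the 501 SGN-like cells at P3 but only 45, 56 and 191 of 624 at E18.5, where 169 more were named intermediate and the rest could not be named, and these entered no comparison of types. Type II sums came from 3 plates (25, 20 and 18 cells), since P3 replicate 2 held too few such cells, and were compared with the mean of Ia and Ib/Ic. Here 4 of the 10 members were called, against 15% of all 14811 genes (2215). Rbfox3 set the types apart most. It stood at 15.502 and 12.7 CPM in type II sums at E18.5 and 11.4 at P3, against 78.5 and 78.2 at E18.5 and 44.6 and 58.8 at P3 in Ia, and 90.2 and 93.6 at E18.5 and 115 and 118 at P3 in Ib/Ic. No type II sum came near a type I sum, and all 3 plates went the same way (log2 -2.64, SE 0.22, adjusted p = 0.000118). Srrm4 showed the same contrast. It stood at 18.9, 18.7 and 20.2 CPM in type II sums against 47.6 to 82.0 in Ia and 51.7 to 80.9 in Ib/Ic (log2 -1.92, SE 0.12, adjusted p = 3.6e-05, 3 of 3 plates).

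Nova1 stood at 21.0, 27.9 and 40.2 CPM in type II sums, in the order E18.5 replicates 1 and 2 and P3 replicate 1, against 37.4, 40.1 and 62.0 in Ia and 28.5, 40.5 and 71.6 in Ib/Ic of the same plates. It was lower in type II on all 3 plates, with overlapping ranges (log2 -0.64, SE 0.13, adjusted p = 0.0122). Elavl3 stood at 144.07, 162 and 95.4 CPM in type II against 179, 191 and 111 in Ia and 208, 244 and 115 in Ib/Ic, lower on all 3 plates (log2 -0.36, SE 0.10, adjusted p = 0.0329). Celf4 was higher in type II, at 74.9, 102 and 155 CPM against 80.3, 69.4 and 68.5 in Ia and 52.6, 65.7 and 72.1 in Ib/Ic (log2 0.66, SE 0.19, adjusted p = 0.0469). In its first plate the Ia sum alone exceeded the type II sum. The 4 type II cells of P3 replicate 2 entered no fit. In unscaled CPM Nova1 stood there at 59.1, above Ia (53.4) and below Ib/Ic (62.4). In those cells Elavl3 was lower (91.2 beside 117 and 104) and Celf4 higher (91.2 beside 44.2 and 60.2) than in both. These 3 calls were fragile. Elavl3 lost its call without P3 replicate 1 (-0.41), E18.5 replicate 1 (-0.33) or E18.5 replicate 2 (-0.34), and Nova1 without P3 replicate 1 (-0.58) or E18.5 replicate 2 (-0.69). Celf4 lost it without P3 replicate 1 (0.41) or E18.5 replicate 2 (0.70), with Leiden resolution 2 and with the 5% of cells with the most counts left out, and all 3 lost it among low-marker cells (Nova1 -0.40, Celf4 0.51).

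Elavl2 (-0.24), Elavl4 (-0.12), Rbfox1 (-0.05), Rbfox2 (-0.15), Nova2 (-0.13) and Ptbp1 (0.24) were not called between type II and type I, and Elavl2 was called with cells thinned to 50000 counts and with Leiden resolution 2. Medians were -0.14 over the members and -0.02 over all genes. Of 23 tissue genes 2 were higher and 2 lower in type II (median 0.14), led by Srrm4, Khdrbs3 (1.08) and Mbnl2 (-0.47). Khdrbs3 was not called without P3 replicate 1 (0.98), E18.5 replicate 1 (1.12) or E18.5 replicate 2 (1.14). Of the mRNA-binding list 1 was higher and 2 lower (median -0.03), led by Cpeb3 (-0.95), Pcbp3 (0.70) and Pcbp4 (-0.62), with Cpeb3 not called without P3 replicate 1 (-0.79) or E18.5 replicate 2 (-1.004). Hnrnpl of the core list was called (0.45, median -0.03), but not without P3 replicate 1 (0.30), E18.5 replicate 1 (0.54) or E18.5 replicate 2 (0.52). Ptbp2 (-0.01), Srrm3 (0.03), Rest (0.48) and Elavl1 (0.21) were not called. The 6 glial markers came to 4411 and 3493 CPM at E18.5 and 881 at P3 in type II sums, 2446 and 2901 at E18.5 and 492 and 345 at P3 in Ia, and 3371 and 2990 at E18.5 and 766 and 588 at P3 in Ib/Ic. On each plate they were highest in type II where it was present and lowest in Ia, and their part in the results was not tested.

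Within type I, between Ib/Ic and Ia, 1 of the 10 members was called, against 3.5% of all genes (518). Rbfox2 stood at 278 and 247 CPM in Ib/Ic at E18.5 and 146 and 143.4 at P3, against 180.07 and 201 at E18.5 and 96.9 and 76.3 at P3 in Ia. It was higher in Ib/Ic on all 4 plates (log2 0.60, SE 0.10, adjusted p = 0.0131). The call was lost without P3 replicate 2 (0.49) or E18.5 replicate 1 (0.60). Rbfox3 was higher in Ib/Ic on all 4 plates, with no overlap between the classes, without being called (log2 0.71, SE 0.19, adjusted p = 0.084). It was called with DESeq2 (0.69), with cells thinned to 50000 counts and with Leiden resolution 2 (1.02). When Ib and Ic are separated, in unscaled CPM, Rbfox3 stood at 58.3 and 61.5 CPM in Ib at E18.5 and 84.9 and 84.3 at P3, and at 107 and 110.04 in Ic at E18.5 and 130.4 and 126 at P3. On the same scale Ia stood at 83.7 and 82.7 CPM at E18.5 and 40.3 and 53.5 at P3, and type II at 17.3 and 13.8 at E18.5 and 11.2 and 10.2 at P3, the last from 4 cells. On every plate Ic was the highest of the named subtypes, while Ib lay below Ia on both E18.5 plates and above it on both P3 plates. These orders were not tested. In neurons still named intermediate at E18.5 Rbfox3 stood at 28.2 and 28.6 unscaled CPM, between type II and the type I subtypes.

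Elavl2 (0.28), Elavl3 (0.12), Elavl4 (-0.12), Rbfox1 (-0.35), Nova1 (0.02), Nova2 (0.01), Celf4 (-0.05) and Ptbp1 (0.08) were not called between Ib/Ic and Ia. Among them Elavl2 was higher and Rbfox1 and Elavl4 lower in Ib/Ic on all 4 plates. Ib taken alone differed from this in part, in unscaled CPM. Elavl4 in Ib was above Ia at E18.5 (1023 and 1103 against 964 and 1049) and below it at P3. Rbfox1 in Ib was above Ia in E18.5 replicate 1 (172 against 158) and below it elsewhere. Medians were 0.05 over the members and 0.04 over all genes. Of 23 tissue genes Celf2 alone was called (0.37, median 0.08), and of the mRNA-binding list Pcbp4 alone (0.40, median 0.03). Celf2 lost its call without any 1 of the 4 plates (0.33 to 0.41), and Pcbp4 without P3 replicate 2 (0.38), E18.5 replicate 1 (0.41) or E18.5 replicate 2 (0.44). None of the 35 core genes was called (median 0.09). Ptbp2 (0.25), Srrm3 (-0.10), Srrm4 (0.08), Rest (-0.07) and Elavl1 (0.06) were not called.

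**Figure D5:**
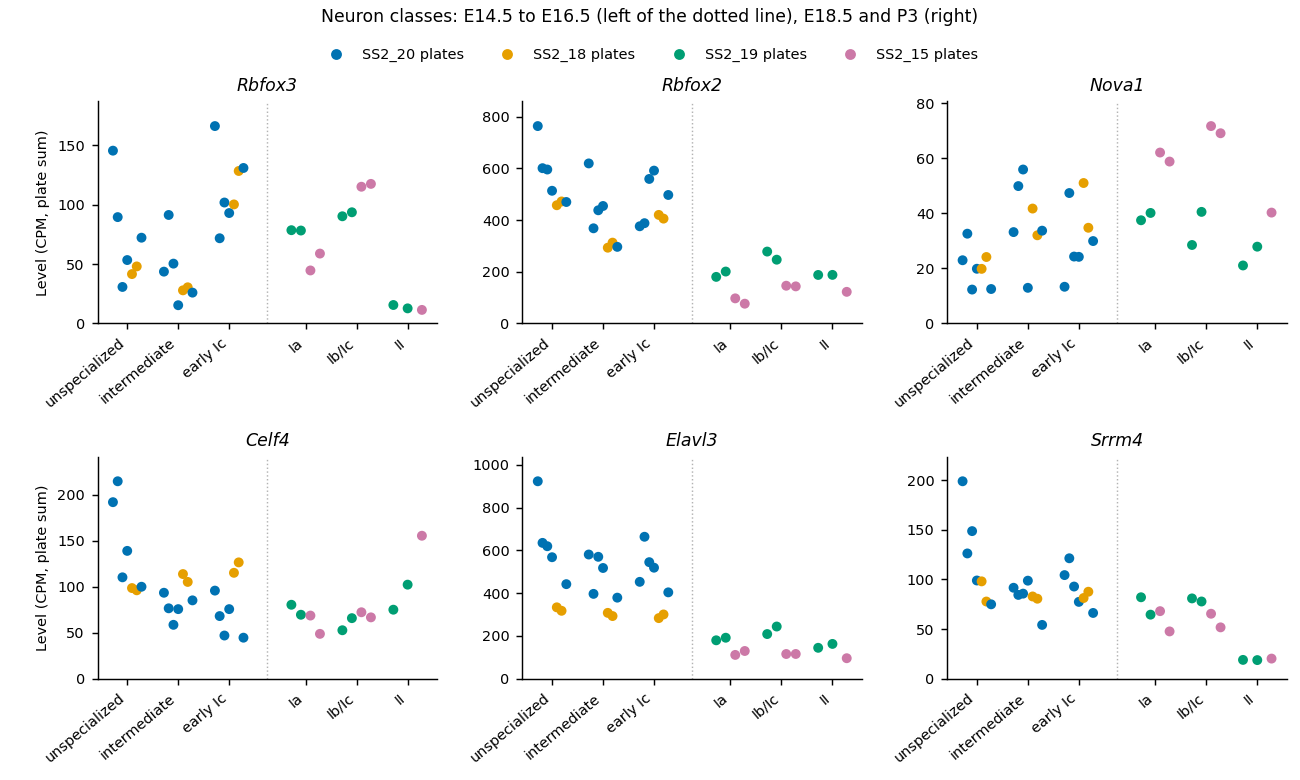
Normalised levels (CPM) of Rbfox3, Rbfox2, Nova1, Celf4, Elavl3 and Srrm4 in the neuron classes, 1 point a plate and class. Rbfox3 lies between 11.4 and 15.502 CPM in the 3 type II sums and at 44.6 or more in every Ia and Ib/Ic sum.

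Counted cell by cell, after thinning each cell to 50000 counts so that depth is equal (56 cells under that depth left out), the members differ in how widely they are detected. Shares carry 95% Wilson confidence intervals, which cover counting of cells only. They pool all ages, and P3 gave 501 SGN-like cells but no glia-like, OM-like or HC-like cell, so shares of members that change with age, such as Nova2, mix unlike groups. Elavl4 was detected in 99.9% of 2257 SGN-like cells (99.7 to 100) and in 8.88% of glia-like cells (7.37 to 10.7). Rbfox3 was detected in 69.03% of SGN-like cells (67.1 to 70.9), 2.002% of glia-like cells (1.34 to 2.99) and 53.5% of 86 HC-like cells (43.0 to 63.7). Among the neuronal members it was the 1 found in most HC-like cells after Rbfox2 (90.7%, 82.7 to 95.2). Nova1 was detected in 55.8% of SGN-like cells (53.8 to 57.9) against 10.6% of glia-like cells (8.97 to 12.5), and Nova2 in 53.2% (51.1 to 55.3) against 2.35% (1.62 to 3.40). Rbfox2 was detected in 83.2% of 567 OM-like cells (79.9 to 86.1) but in 41.5% of glia-like cells (38.7 to 44.4). Ptbp1 was detected in 75.0% of SGN-like cells (73.2 to 76.8), 96.1% of glia-like (94.8 to 97.1), 97.4% of OM-like (95.7 to 98.4) and 98.8% of HC-like cells (93.7 to 99.8). Its counts thus came from most SGN-like cells, and the part of RNA from other cells in that share was not tested. Median counts a cell before thinning were 348517 in SGN-like, 252765 in glia-like, 273696 in OM-like and 327976 in HC-like cells.

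Likeness between genes was measured as the Pearson correlation of log CPM over the 34 plate and class sums, which share plates, depth and above all the divide between neurons and other cells. Within the list Elavl2 and Elavl3 were the most alike (r = 0.971). Ptbp1 was opposed to every other member, from r = -0.636 with Rbfox2 to -0.907 with Elavl2, and the least alike of the positive pairs was Rbfox2 with Nova1 (0.162). Among all 15868 genes of the class fit the nearest to Elavl2 were Pirt (0.978) and Kcnc2 (0.975), to Elavl3 Tubb3 (0.981) and Pirt (0.976), and to Elavl4 Pcsk1n (0.989) and Trim67 (0.981). Nearest to Rbfox1 were Lypd1 (0.952) and Rims1 (0.949), to Rbfox2 Macf1 (0.939) and Cd24a (0.914), and to Rbfox3 Sez6 (0.973) and Unc13a (0.972). Nova1 lay nearest to Gab2 (0.908) and Ywhah (0.861), Nova2 to Rps6kl1 (0.9552) and Celf3 (0.943), and Celf4 to Scn3a (0.952) and Aplp1 (0.940). The nearest genes to Ptbp1 were Pttg1ip (0.953) and Ggta1 (0.952).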

How the data were processed

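The authors deposited counts: raw reads per gene and well, made from Smart-seq2 libraries split with deindexer and aligned to mm10 with STAR and counted with featureCounts, with annotation and strand use not stated. Wells were kept with more than 1000 genes and at most 5% ERCC counts, clustered with Scanpy (2000 variable genes, 30 components, 30 neighbours, Leiden resolution 1) and named from markers. The naming rules were revised after the cluster tables were seen and before member levels or tests were. Counts were added up by plate and class where a class had 5 cells or more on the plate (3 in the case of HC-like cells). These totals were compared with edgeR 4.0.16 (quasi-likelihood, TMM, filterByExpr; R 4.3.3), with plate as a block in the class and neuron fits and p adjusted over all genes by the Benjamini-Hochberg method. Classes and comparisons come from the same cells. The members and the other lists were chosen with earlier results of these data known. Genes named beyond the members are Ptbp2, Srrm3, Srrm4, Rest and Elavl1, the 3 called genes of each list with the largest difference, and the 2 nearest genes of each member. Some marker and list genes, and sums that hold them, are not reported here. Plates of an age may share pooled animals, reads carry no molecule tags, and 384 wells of no deposited sample were left out.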

Additional observations from a re-analysis of the deposited data

Results flagged for a closer look

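Differences here are of log2(CPM + 1) between the 2 classes of a plate. Of 70 groups of plates 4 held a plate far from the others, where about 1 in 20 would by chance alone. Nova1, glia-like minus SGN-like, was -3.92 on E18.5 replicate 1, the lowest of 10 plates, with the nearest at -1.37. Nova1, OM-like minus glia-like, was 3.24 on that plate, the highest of 9, with the nearest at -0.15. The glia-like sum of 8 cells is common to both. It holds 3 Nova1 counts (1.55 CPM), at the floor, so the size of both differences is poorly resolved. Ptbp1, HC-like minus SGN-like, was 3.89 at E17.5, the highest of 5 plates, with the nearest at 3.10. Elavl3, early Ic-like minus intermediate, was 0.74 on E14.5 replicate 2, the highest of 7 plates, with the nearest at 0.09.

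In 10 of 200 pairs of ages with at least 2 plates each, all plates of an age lay above 0 and all plates of the other age below it. How many pairs would split this way by chance is not given, so the count alone shows no excess. None of these was tested, and values here are means over the plates. For OM-like minus glia-like, E14.5 and E15.5 differed by 3.34 for Elavl2 (1.04 and -2.30) and by 0.81 for Rbfox3 (0.03 and -0.78). The Rbfox3 value of E14.5 rests on 1 count in each OM-like sum against 0 in the glia-like sums, under the floor of 3 counts, so its sign there is not resolved. For early Ic-like minus intermediate, where the name early Ic-like is uncertain at E14.5, E14.5 differed from E15.5 by -1.24 for Elavl2 (-0.14 and 1.10), by -0.86 for Rbfox1 (-0.55 and 0.31) and by -1.11 for Ptbp1 (-0.70 and 0.40). E14.5 differed from E16.5 by -0.996 for Elavl2 (0.86 at E16.5), and E15.5 from E16.5 by 0.64 for Rbfox1 (-0.33 at E16.5). For intermediate minus unspecialized, Elavl2 at E14.5 (0.68) differed by 1.41 from E15.5 (-0.73) and by 1.42 from E16.5 (-0.74). For Ib/Ic minus Ia, Celf4 at E18.5 and P3 differed by -0.60 (-0.34 and 0.26).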

How the results depend on the processing

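Of 2180 member values from other settings and from fits without 1 plate, 1987 kept call and direction, 88 were weaker, 58 stronger and 47 had the other sign, none of these called in either fit. Of 218 counts of called members 43 moved by over 1.5 times. Causes were not tested. Limits: E18.5 and P3 each come from 1 plate series of their own, so age and series cannot be told apart; a fit of SS2_20 plates alone could be run only for E16.5 minus E14.5 among the age comparisons and not for the neuron classes; a group left with 1 plate is assumed to vary like the others; and leaving out the E14.5 or E18.5 plates and fitting only the 2 classes compared were settings chosen after the data were seen.

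Counts of all genes called are given for part of the settings below, and not for Leiden resolution 2 or thinned cells. Where they are missing, a changed count of members cannot be set against all genes. DESeq2 called 3 members in OM minus glia, 2 in Ib/Ic minus Ia, 2 in early Ic minus intermediate and 2 in intermediate minus unspecialized. Without the E14.5 plates 3 were called in early Ic minus intermediate and 3 in intermediate minus unspecialized, and without the E18.5 plates 2 in OM minus glia. With Leiden resolution 2 the counts were 4 in OM minus glia, 2 in Ib/Ic minus Ia, 0 in early Ic minus intermediate and 1 in intermediate minus unspecialized. With cells thinned to 50000 counts 2 were called in Ib/Ic minus Ia and 1 in intermediate minus unspecialized. Sums of at least 10 cells gave 3 in HC minus SGN, 4 in OM minus glia and 1 in intermediate minus unspecialized. The SS2_20 plates alone gave 6 in OM minus glia and 3 in E16.5 minus E14.5, and the 2 classes alone 2 in OM minus glia. Low-marker cells gave 0 in OM minus glia, 1 in type II minus type I, 1 in intermediate minus unspecialized, 2 in E18.5 minus E16.5 and 4 in P3 minus E18.5.

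These values had the other sign, and none of them was called. With the 5% of cells with the most counts left out, Nova1 E16.5 minus E14.5 was -0.018 and Celf4 P3 minus E18.5 0.026. With DESeq2, Nova1 was -0.0027 and Nova2 -0.021 in Ib/Ic minus Ia. Without the E14.5 plates Elavl3 was -0.010 in early Ic minus intermediate and Rbfox1 -0.023 in intermediate minus unspecialized. With Leiden resolution 2, Nova2 was 0.18 in OM minus glia, Elavl3 -0.039 and Nova1 -0.097 in Ib/Ic minus Ia, and Nova1 0.047 in early Ic minus intermediate. With thinned cells, Nova1 was -0.13 in Ib/Ic minus Ia, Nova2 0.28 in OM minus glia and Celf4 0.0046 in P3 minus E18.5. With the SS2_20 plates alone Nova1 was -0.155 in E16.5 minus E14.5. Without plate as a block, Nova2 was 0.043 in OM minus glia and Rbfox1 0.028 in type II minus type I. Among low-marker cells, Nova1 was -0.026, Nova2 -0.094 and Ptbp1 -0.080 in Ib/Ic minus Ia, Celf4 0.025 and Nova1 0.097 in early Ic minus intermediate, Celf4 0.056 and Ptbp1 -0.66 in E18.5 minus E16.5, and Elavl4 -0.022 and Ptbp1 0.35 in P3 minus E18.5.

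Without 1 plate, members called ran from 4 to 7 in E16.5 minus E14.5, 1 to 4 in E18.5 minus E16.5, 4 to 8 in P3 minus E18.5, 1 to 2 in OM minus glia, 0 to 2 in early Ic minus intermediate, 0 to 1 in intermediate minus unspecialized, 1 to 4 in type II minus type I and 0 to 1 in Ib/Ic minus Ia. Members with the other sign in such a fit, not called there, ran, for E16.5 minus E14.5, from -0.089 to 0.33 (Nova1); E18.5 minus E16.5, -0.064 to 0.10 (Rbfox3) and -0.022 to 0.13 (Elavl4); P3 minus E18.5, -0.20 to 0.059 (Celf4); E18.5 minus E14.5, -0.45 to 0.046 (Ptbp1); OM minus glia, -0.49 to 0.0019 (Elavl2) and -0.66 to 0.10 (Nova2); early Ic minus intermediate, -0.057 to 0.11 (Elavl3) and -0.024 to 0.19 (Ptbp1); type II minus type I, -0.44 to 0.17 (Nova2) and -0.26 to 0.11 (Rbfox1); and Ib/Ic minus Ia, -0.24 to 0.15 (Celf4), -0.067 to 0.16 (Nova1) and -0.094 to 0.082 (Nova2).

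Without 1 plate, counts of all genes called ran from 1481 to 3531 in E16.5 minus E14.5 (2665 with all), 75 to 1258 in E18.5 minus E16.5 (826), 2127 to 5221 in P3 minus E18.5 (4406), 2132 to 5000 in E18.5 minus E14.5 (4197), 26 to 187 in early Ic minus intermediate (127), 55 to 170 in intermediate minus unspecialized (182), 1011 to 2147 in type II minus type I (2215) and 191 to 485 in Ib/Ic minus Ia (518). With DESeq2 they were 4123, 1873 and 5604 in the first 3 of these, 7238 in HC minus SGN (5884), and 439, 813 and 1065 in early Ic, intermediate and Ib/Ic. Low-marker cells gave 382 in E18.5 minus E16.5, 2811 in P3 minus E18.5, 1375 in OM minus glia (2128), 3804 in HC minus SGN, and 26, 72 and 285 in early Ic, intermediate and Ib/Ic. The SS2_20 plates gave 320 in E16.5 minus E14.5, sums of at least 10 cells 3664 in OM minus glia and 3025 in HC minus SGN, and the 2 classes alone 2482 in HC minus SGN.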
